A study of Sus scrofa with 6 samples.

Results

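The genes described here encode subunits of the mitochondrial respiratory chain and of ATP synthase, with a few proteins that help to build them. They were chosen by symbol: every gene whose single annotated symbol begins with NDUF, UQCR or ATP5, or with COX and a digit, or is SDHA to SDHD or CYC1. The array annotation held 64 such genes among 6765 named genes. By symbol, 33 belonged to complex I, 4 to complex II, 2 to complex III, 7 to complex IV and 13 to complex V, and 5 were assembly factors, which are not subunits of the finished complexes. Where a gene had several probe sets, the one brightest on average over the 6 arrays on the log2 scale stood for it, and 55 of the 64 passed the filter on dim probe sets.

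The respiratory chain passes electrons from NADH (complex I) and succinate (complex II) through coenzyme Q, complex III and cytochrome c to oxygen at complex IV, and complexes I, III and IV pump protons across the inner mitochondrial membrane. ATP synthase, complex V, uses the returning protons to make ATP. All members described here are encoded in the nucleus, while some core subunits of complexes I, III, IV and V are encoded in mitochondrial DNA. An early embryo runs largely on mitochondria and transcripts stored in the oocyte, until its own genome becomes active.

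Transcripts were profiled with the Affymetrix porcine array in pig nuclear transfer embryos, made by placing the nucleus of a cultured cell in an oocyte, and in the cultured cells that gave the nuclei. Embryos were injected with an antibody to DJ-1, a protein that responds to oxidative stress (2 arrays), injected with control IgG (2 arrays) or left without injection (1 array); the donor cells, fibroblasts established from an adult Meishan pig, gave 1 array. Each embryo sample pooled 23 to 26 embryos, reconstructed with slaughterhouse oocytes, cultured in PZM-3 and taken at 28 h, when many had just reached 2 cells. Trial 1 held 1 array of each group, and trial 2 held a further sample of anti-DJ1 and of IgG embryos. The labels name no genetic change in any group, and the donor cells were from 1 pig.

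The deposited signals were scaled alike, with trimmed means of 500.11 to 500.17. The highest of the array's 17 Tag control probe sets, which match no pig gene, read 21.4 to 47.0 and served as the background level. Between 51 and 58 of the 64 members lay above it on the embryo arrays, and 62 on the donor array. The 8 oocyte markers on the array summed to 69637 to 112343 in embryos and to 220 in donor cells. The 9 fibroblast markers summed to 2754 to 3504 in embryos and to 93925 in donor cells. Of the 7 tested, 6 were lower in embryos and 1 was higher, at a log2 difference of 2.91. The 9 cumulus and granulosa markers summed to 1631 to 2240 in embryos and to 12886 in donor cells, where KRT8 (9907) and KRT18 (2103) made up most of the sum; of the 4 tested, 2 (INHBA and FST) were higher in embryos and 1 (KRT8) lower. The 4 muscle markers summed to 526 to 896 and 381, and the 4 leukocyte and endothelial markers to 212 to 417 and 154. The 3′ probe set of EF1A was brighter than its 5′ probe set, a measure of how far labelling reached along a transcript, by a ratio of 23.9 to 30.0 on the 3 embryo arrays of trial 1, 8.20 and 9.34 on those of trial 2, and 4.23 on the donor array.

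Embryos were first compared with their donor cells. Most respiratory chain and ATP synthase transcripts gave lower signals in the embryos than in the fibroblasts. At an adjusted p under 0.05, 45 of 55 tested members (81.8%) were lower and 4 (7.27%) were higher. The test was limma with the trial as a block and Benjamini-Hochberg adjustment over 14399 probe sets. Over all tested probe sets, 36.5% were lower and 36.4% higher. Over the 5218 named genes tested, with 1 probe set each, 41.5% were lower and 35.3% higher. At the level of trial 1 the median difference of the members was -2.07 in log2, against -0.025 over all tested probe sets. In trial 2 the median against the donor array was -1.28 for anti-DJ1 and -1.25 for IgG embryos. The medians over all tested probe sets were 0.19 and 0.21 there. On these 2 arrays 13 and 12 of the 55 members lay above the donor array, and on each trial 1 embryo array 4 did. Of the 45 lower members, 28 were at least 4-fold lower and 16 at least 8-fold lower. Of the 55, 3 (ATP5S, NDUFA2 and NDUFS1) had passed the filter on dim probe sets only through the donor array and had to be lower. All 3 are among the 28, and NDUFA2 and NDUFS1 are among the 16. Among the other 52, 42 (80.8%) were lower and 4 (7.69%) higher, against 33.6% and 38.7% of the 13568 probe sets whose embryo mean alone passed. In 39 of the 45 the donor array lay above all 5 embryo arrays, and in the other 6 it lay within them. Without the trial as a block, 31 members passed, 2 higher and 29 lower. The donor cells and the non-injected embryos each gave a single array, assumed to vary like the replicated groups. Each array was made from 50 ng of total RNA and scaled alike. A signal is thus a share of the RNA and not an amount per cell. In such bulk samples, less of a transcript in each cell, fewer cells that hold it and more of other RNA cannot be told apart. The marker sums and EF1A ratios above moved with this comparison, and their part in it was not tested.

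Described by complex, with no test between them, the median was -2.24 for complex I (27 tested), -0.28 for complex II (4), -1.85 for complex III (2), -2.33 for complex IV (5), -1.30 for complex V (13) and -1.55 for the assembly factors (4). These medians stand at the level of trial 1. Those of complex I and of the assembly factors include NDUFA2, NDUFS1 and ATP5S, which had to be lower. In trial 2, with the anti-DJ1 array and then the IgG array set against the donor array, complex II lay above it (medians 0.53 and 0.46), complex IV at -1.0 and -0.94, and complex V at -1.82 and -1.91, so that complex IV was the farther below in the fit and complex V in trial 2. Scaling all arrays to a common 75th percentile moved the median of all probe sets in this comparison to 0.59, and quantile normalization moved it to 0.40. Under the former the complex II median turned to 0.36, while the medians of complexes I, III, IV and V stayed below 0. Relative to all probe sets, complex II lay between -0.56 and -0.23 and complex IV between -2.51 and -2.28 over the 3 scalings.

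**Figure D1:**
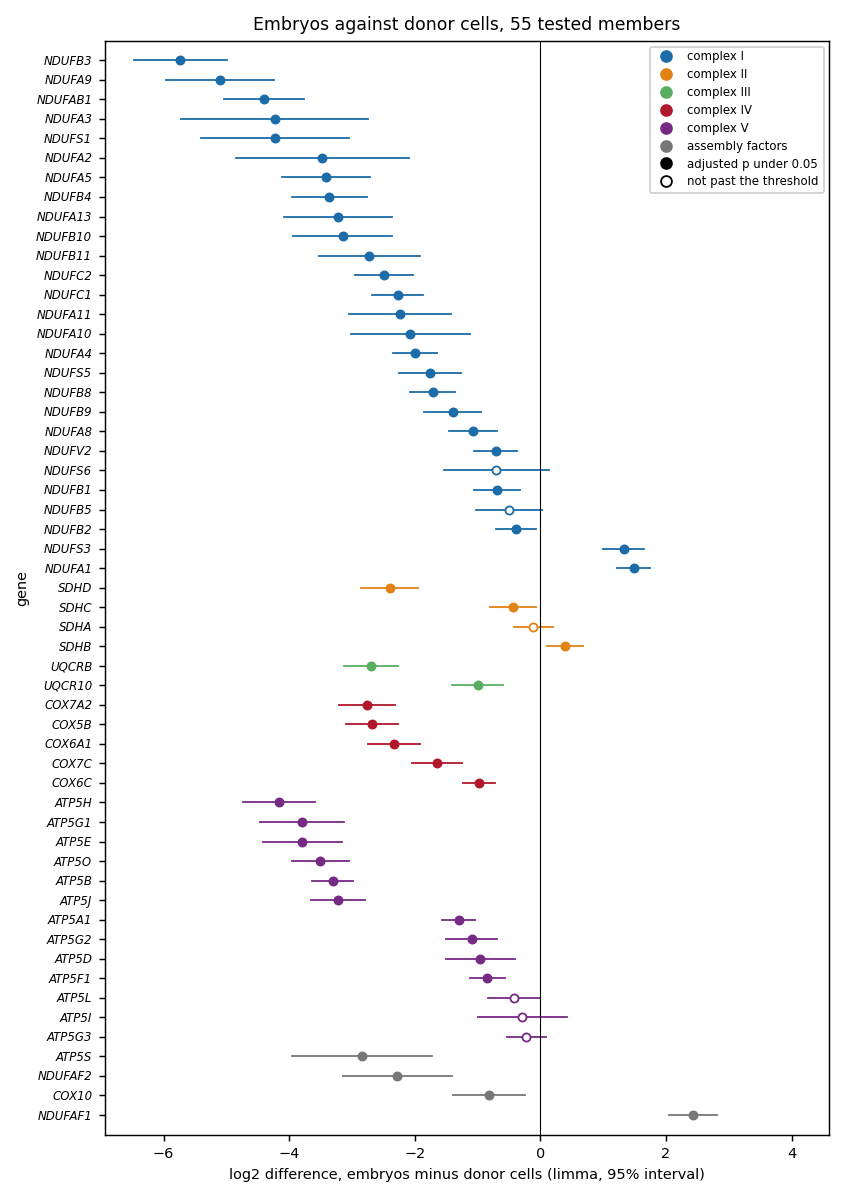
Log2 difference between embryos and donor cells for the 55 tested members, with limma 95% intervals, ordered within each complex; filled points passed an adjusted p of 0.05. Points run from -5.73 (NDUFB3) to 2.42 (NDUFAF1), and 45 filled points lie to the left of 0.

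Complex I, the NADH dehydrogenase, held the most strongly lower members. NDUFB3, an accessory subunit of the membrane arm, read 95.1 and 86.0 in the anti-DJ1 embryos of trials 1 and 2, 119 and 46.0 in the IgG embryos, 103 without injection and 5818 in the donor cells. All 5 embryo arrays thus lay far below the donor array, and the fitted difference was 53.1-fold (log2 -5.73 ± 0.34 SE, adjusted p = 1.18e-08). Its other probe set gave -4.29. NDUFA9, an accessory subunit beside the quinone-binding part, was 34.3-fold lower. NDUFAB1, the mitochondrial acyl carrier protein that also serves fatty acid synthesis, was 21.1-fold lower. The accessory subunit NDUFA3 was 18.8-fold lower, but its embryo signals of 18.5 to 100 straddled the background level. Among the 24 tested accessory subunits 21 were lower and 1 was higher, with a median of -2.25. The 21 include NDUFA2, which passed the filter through the donor array alone and had to be lower.

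The core subunits of complex I, those shared with bacteria, held members that differed in either direction. NDUFS1, the largest iron-sulphur subunit, read 11.8 to 58.4 in embryos, 1 array below its background level, and 685 in donor cells; it passed the filter through the donor array alone, so no test is given for it here. NDUFV2, an iron-sulphur subunit of the NADH-oxidizing part, was 1.64-fold lower (log2 -0.71 ± 0.16, adjusted p = 0.00138). Its other tested probe sets gave -0.14 and -0.28 and did not pass the threshold (adjusted p = 0.697 and 0.677). NDUFS3, a core subunit of the arm that leads to the quinone site, was 2.51-fold higher (log2 1.33 ± 0.15, adjusted p = 5.05e-06). NDUFV1, which binds NADH and FMN, was too dim to be tested: no embryo array exceeded its background level and the donor array read 511, so that it was at least 14.2-fold higher in donor cells, the bound being the mean of the log2 background levels of the 5 embryo arrays. NDUFS7, another core iron-sulphur subunit left untested, read 6.18 to 31.2 in embryos and 251 in donor cells.

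NDUFA1, an accessory subunit needed to assemble the membrane arm, was the complex I member highest in embryos relative to donor cells. It read 6500 and 7109 in anti-DJ1 embryos, 6276 and 6664 in IgG embryos, 7130 without injection and 2365 in the donor cells. The embryo arrays all lay above the donor array, and the difference was 2.80-fold (log2 1.48 ± 0.12, adjusted p = 2.33e-07). A second probe set for the gene went the other way, from a median of 55.5 in embryos to 1950 in donor cells (log2 -5.33). The annotation does not say which transcript form each probe set reads.

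Among the other 3 members higher in embryos, probe sets also differed in sign for SDHB and NDUFS3. SDHB, the iron-sulphur subunit of complex II, was 1.31-fold higher (log2 0.39 ± 0.13, adjusted p = 0.0152). Its second probe set, above background on 1 of 5 embryo arrays, read 14.0 to 44.4 in embryos and 729 in donor cells. That probe set passed the filter through the donor array alone and had to be lower. NDUFS3 had 2 further probe sets, at -0.35 and -0.54, which did not pass the threshold (adjusted p = 0.102 and 0.239). Of the 4 higher members only NDUFAF1, a complex I assembly factor, had the same sign on all its probe sets, at 2.42 ± 0.18 and 0.53, the second not past the threshold (adjusted p = 0.257). Of the 15 members with more than 1 probe set, 9 had one sign throughout. With the dimmest tested probe set of each gene in place of the brightest, no member was higher in embryos and 46 were lower. The 46 include SDHB, ATP5S, NDUFA2 and NDUFS1, whose probe sets there passed the filter only through the donor array and had to be lower. The rule's mean covers 5 embryo arrays and 1 donor array.

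**Figure D2:**
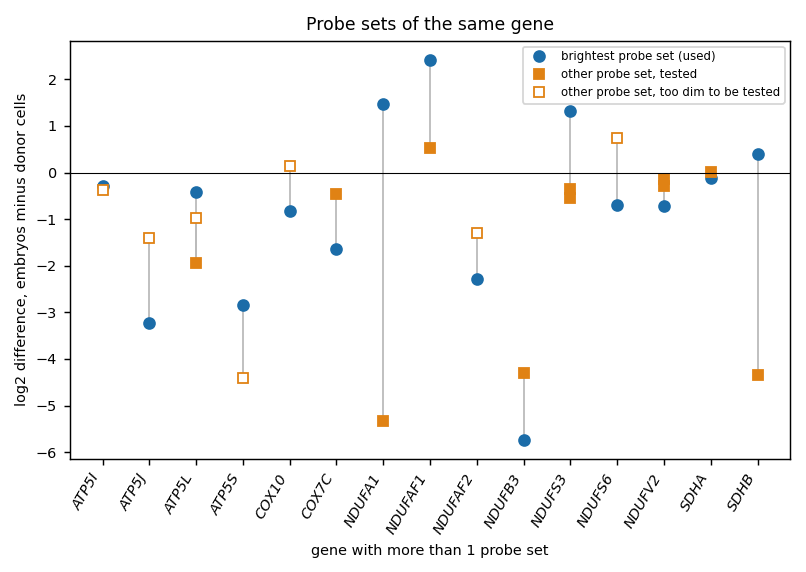
Log2 difference between embryos and donor cells for every probe set of the 15 members with more than 1; circles are the brightest probe set, which represents the gene, and squares are the others. The probe sets of NDUFA1 (1.48 and -5.33), SDHB (0.39 and -4.35) and NDUFS3 (1.33, -0.35 and -0.54) lie on both sides of 0. The second SDHB probe set was above background on 1 of 5 embryo arrays and passed the filter through the donor array alone.

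Complex II, succinate dehydrogenase, is also an enzyme of the citric acid cycle. On the brightest probe sets and the deposited scaling, the fit at the level of trial 1 put its catalytic subunits within 1.31-fold of the donor level. The arrays of trial 2 lay farther above it, with SDHB at 4159 in anti-DJ1 and 4206 in IgG embryos against 2595 in donor cells. SDHA, the flavoprotein, read 1699 and 3023 in anti-DJ1 embryos, 1536 and 2790 in IgG embryos, 1644 without injection and 1755 in the donor cells. The donor array lay within the embryo arrays, and the difference of -0.11 ± 0.14 did not pass the threshold (95% interval -0.42 to 0.20, adjusted p = 0.5). SDHC, a membrane anchor, also had its donor signal of 1274 within the embryo signals, which ran from 875 to 1666, and the fit, taken at the level of trial 1, gave -0.44 ± 0.17 (adjusted p = 0.0339), a sign that turned to 0.19 with a common 75th percentile. SDHD, the other anchor, was 5.28-fold lower in embryos, with 293 to 524 against 1806.

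Complex III was represented by UQCRB and UQCR10, small subunits that bear no redox centre. UQCRB read 370 to 500 in embryos and 2823 in donor cells, a difference of 6.5-fold (log2 -2.70 ± 0.20, adjusted p = 8.37e-08). UQCR10 read 467 and 914 in anti-DJ1 embryos, 418 and 744 in IgG embryos, 431 without injection and 879 in the donor cells. Its donor signal was thus passed by 1 embryo array of trial 2, and the fitted difference was 2.00-fold (log2 -1.0 ± 0.18, adjusted p = 0.000355).

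All 5 tested subunits of complex IV, cytochrome c oxidase, were lower in embryos, and for each the donor array lay above every embryo array. COX7A2, the isoform found in most tissues, was 6.77-fold lower, COX5B 6.41-fold, COX6A1 (the isoform outside heart and muscle) 5.03-fold, COX7C 3.15-fold and COX6C 1.98-fold. These folds stand at the level of trial 1. In trial 2 COX7C read 3336 in anti-DJ1 and 2243 in IgG embryos, against 3466 in donor cells. In the same order COX5B read 847 and 935 against 2236, COX6A1 784 and 815 against 1569, and COX7A2 687 and 616 against 2033. COX6C read 7628 and 6774 against 12129. A second tested probe set of COX7C gave -0.46 (adjusted p = 0.492). COX7A1, the heart and muscle isoform, was too dim to be tested, with 5.76 to 67.5 in embryos and 80.2 in donor cells. COX8H, the heart and muscle form of subunit 8, read 10.1 to 47.7 in embryos and 8.48 in donor cells, near or below background. NDUFA4, placed with complex I by its symbol but now counted among the subunits of complex IV, was 3.99-fold lower.

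Complex V members are taken by the part of the enzyme they form. All 4 tested subunits of the catalytic head and central stalk were lower, with a median of -2.30. ATP5B, the catalytic beta subunit, read 937 and 1174 in anti-DJ1 embryos, 865 and 1067 in IgG embryos, 691 without injection and 8212 in the donor cells. This was a 9.92-fold difference with no overlap (log2 -3.31 ± 0.15, adjusted p = 1.20e-09). ATP5A1, its alpha partner in the same head, was 2.46-fold lower, ATP5D 1.94-fold and ATP5E 13.8-fold. All 4 subunits of the peripheral stalk were lower as well, with a median of -3.36: ATP5H was 18.0-fold lower, ATP5O 11.4-fold, ATP5J 9.32-fold and ATP5F1 1.80-fold. The membrane subunits ATP5I and ATP5L differed by -0.29 ± 0.32 and -0.42 ± 0.19 and did not pass the threshold (adjusted p = 0.444 and 0.0641); a second probe set of ATP5L gave -1.95 (adjusted p = 5.62e-05).

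The 3 genes of the proton-carrying c subunit, which encode the same mature protein with different import sequences, differed in their embryo to donor difference. ATP5G1 read 152 and 133 in anti-DJ1 embryos, 127 and 239 in IgG embryos, 148 without injection and 2022 in the donor cells, 13.9-fold lower (log2 -3.79 ± 0.31, adjusted p = 2.15e-07). ATP5G2 read 322 and 1450, 393 and 1478, 296 and 720 in the same order, so that the donor array lay above the embryo arrays of trial 1 and below those of trial 2. The limma fit, taken at the level of trial 1, gave -1.10 ± 0.19 (adjusted p = 0.000185) and counts it among the lower members. ATP5G3 read 7651 and 6192, 5804 and 6650, 7908 and 8250, a difference of -0.23 ± 0.14 that did not pass the threshold (95% interval -0.54 to 0.09, adjusted p = 0.179). The differences of the 3 genes were not tested against each other, and hybridization between such similar transcripts was not tested.

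**Figure D3:**
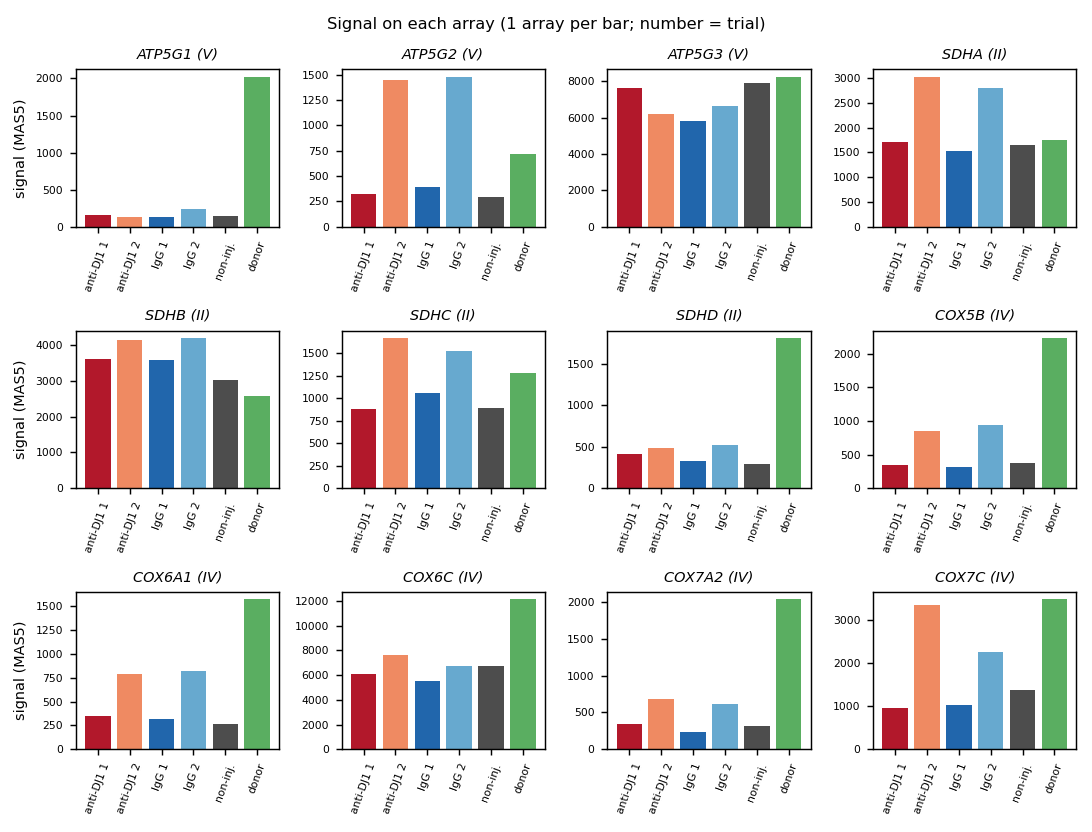
Deposited signal on each of the 6 arrays for the 3 c subunit genes, the 4 members of complex II and the 5 tested members of complex IV; 1 bar is 1 array, the number is the trial, and each panel has its own linear axis from 0. The donor bar is the highest for all 5 complex IV genes, while for SDHB it is the lowest, and in ATP5G2 both trial 2 bars stand above it.

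The 9 members that were too dim to be tested were NDUFA7, NDUFA12, NDUFS7, NDUFV1, NDUFV3, NDUFB7, COX7A1, COX8H and NDUFAF3. In 7 of them the donor array lay above all 5 embryo arrays. Over all 64 members, tested or not, this held for 48 (75%), against 39.4% of 23999 probe sets. NDUFA12, an accessory subunit, had the highest donor signal of the 9, at 1357, with 3.59 to 52.6 in embryos. NDUFV3 lay below background on every array.

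Other mitochondrial genes were counted in the same comparison. As given above, 41.5% of the 5218 named genes tested were lower and 35.3% higher. Of 8 tested factors for mitochondrial genome upkeep and biogenesis, 8 were lower. They included TFAM, which packages mitochondrial DNA, with 22.3 to 53.6 in embryos and 3685 in donor cells. TFAM had passed the filter on dim probe sets only through the donor array and had to be lower. The same held for IDH3B, ACAD9, TACO1 and ETFB in the lists that follow. Of 16 carriers and channels of the mitochondrial membranes 12 were lower and 2 higher; the phosphate carrier SLC25A3, which supplies ATP synthase, was at -6.31 ± 0.23. Of 17 tested genes of the citric acid cycle and pyruvate dehydrogenase, 12 were lower and 4 higher, with PDHB at -4.55 and citrate synthase (CS) at 2.97. Among 11 assembly factors outside the symbol rule 6 (54.5%) were lower and 1 (9.09%) higher. Among 8 electron carrier and coenzyme Q genes 2 (25%) were lower and 4 (50%) higher. The last group included CYCS, which encodes the cytochrome c that links complexes III and IV, at 1.06 ± 0.12.

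The trials were compared next, over the anti-DJ1 and IgG embryos that both trials held. Members of all 5 complexes read higher in trial 2: 22 of 55 (40%) were higher and 4 (7.27%) were lower at an adjusted p under 0.05, against 18.9% and 13.4% of all tested probe sets. The median difference was 0.46, against 0.14 over all tested probe sets, and 40 members (72.7%) were higher in trial 2 in both groups, against 45.9% of all tested probe sets. Over the 5218 named genes tested, with 1 probe set each, the median was 0.25, and 26.4% were higher and 12.2% lower. With a common 75th percentile, 19 members passed as higher and 7 as lower. Without the fitted relation between spread and signal (the mean-variance trend), no member passed in limma. The EF1A ratio differed between the trials, as given above, and its part in these differences was not tested; day, oocytes and labelling cannot be told apart from the trial.

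Complex IV had the largest median between the trials, 1.27, and all 5 of its tested members were higher in trial 2. With NDUFA4 counted here, 5 were higher and 1 (NDUFA4, -0.40) lower, with a median of 1.22. Relative to all probe sets, its median lay between 1.02 and 1.12 over the 3 scalings. COX7C went from 952 to 3336 in anti-DJ1 embryos and from 1023 to 2243 in IgG embryos. Both trial 2 arrays lay above both trial 1 arrays, with a difference of 1.47 ± 0.16 (adjusted p = 7.24e-05), and the non-injected array of trial 1 read 1362. COX5B, COX6A1 and COX7A2 rose by 1.40, 1.27 and 1.17, and COX6C by 0.30 ± 0.10 (adjusted p = 0.0395; 0.054 with a common 75th percentile, where it no longer passed).

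In the other complexes the members split. Of 9 tested NDUFB subunits 7 were higher in trial 2, with NDUFB11 at 1.37 and NDUFB5 at 1.30. Of 11 tested NDUFA subunits 2 were higher, NDUFA8 at 0.92 and NDUFA11 at 1.62, and NDUFA4 was lower. In complex II, SDHA was higher by 0.84 ± 0.12 and its second probe set by 1.08 (adjusted p = 0.00449), and SDHC was higher by 0.73. UQCR10 of complex III was higher by 0.89.

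Complex V had members that differed in both directions between the trials. ATP5G2, whose array values are given above, had the largest difference of any member, 2.03 ± 0.16 (adjusted p = 1.47e-05), whereas ATP5G1 and ATP5G3 differed by 0.35 ± 0.26 and -0.054 ± 0.13 and did not pass. ATP5L and ATP5I were higher by 1.39 and 1.27, although the second probe set of ATP5L was lower by -0.88 (adjusted p = 0.0191). ATP5O was higher by 0.71. ATP5J, coupling factor 6, went from 484 to 270 in anti-DJ1 embryos and from 326 to 213 in IgG embryos, lower in trial 2 by -0.72 ± 0.17 (adjusted p = 0.00776), and ATP5A1 was lower by -0.59 ± 0.10 (adjusted p = 0.00125). NDUFS3 was lower by -0.77 on the brightest probe set and higher by 0.98 (adjusted p = 0.000679) on the next.

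**Figure D4:**
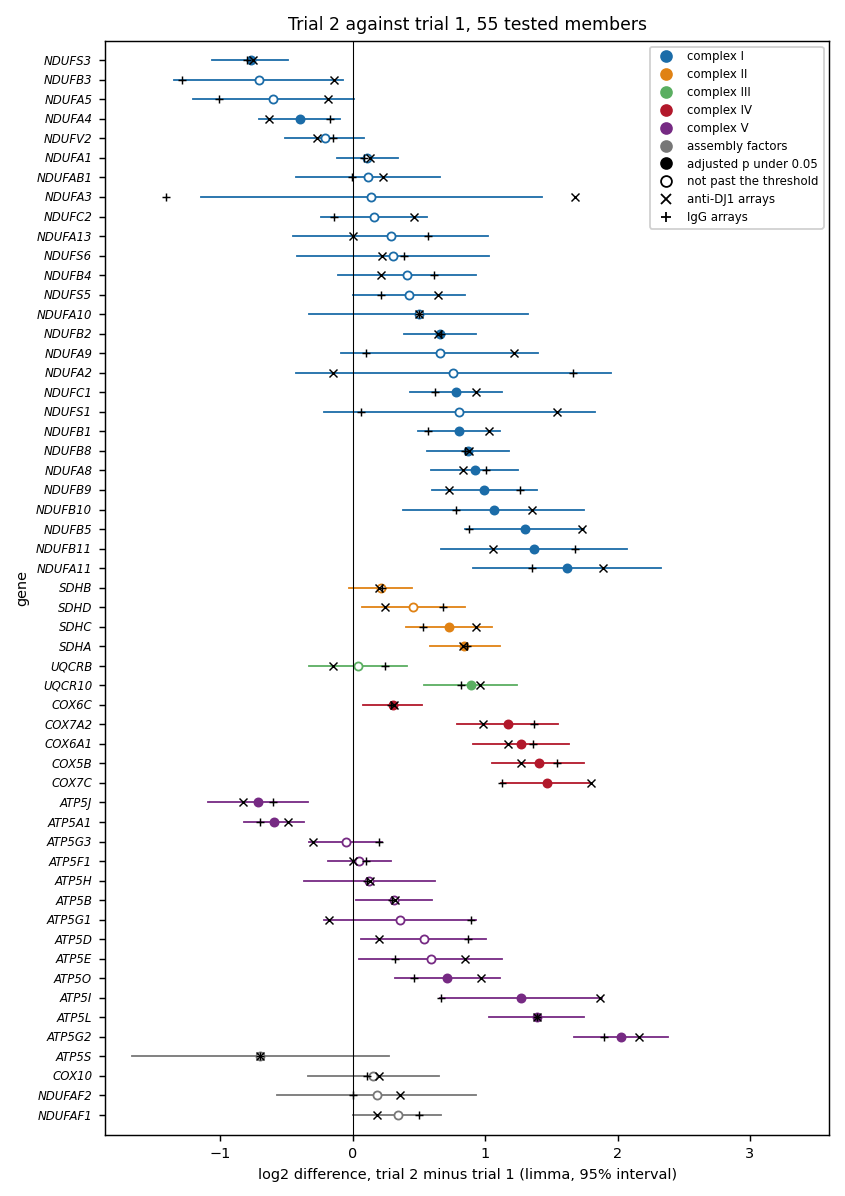
Log2 difference between trial 2 and trial 1 for the 55 tested members, with limma 95% intervals; crosses are the anti-DJ1 arrays alone, plus signs the IgG arrays alone, and filled points passed an adjusted p of 0.05. The 5 complex IV points are filled and lie from 0.30 to 1.47, and ATP5G2 lies farthest to the right at 2.03.

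Anti-DJ1 embryos were then set against the IgG embryos, which asks what the antibody to DJ-1 did to these transcripts. No member passed the threshold in limma (0 of 55, with 0% of all 14399 probe sets), and 2 members, NDUFS3 and ATP5J, had an unadjusted p under 0.05 (3.64%), as had 838 probe sets (5.82%). The median difference of the members was 0.065, against -0.0054 over all tested probe sets. Complex medians were 0.072 for complex I, 0.043 for II, 0.13 for III, 0.16 for IV and -0.016 for V. The 95% interval of a member reached a median of 1.31-fold to either side, and 1.17-fold to 2.45-fold over the members. These intervals are not adjusted for the number of probe sets. Smaller differences could not be detected here, and larger ones could also miss the adjusted threshold. ATP5J, at 1.36-fold with an interval clear of 0, had an adjusted p of 0.853 in limma.

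The sign of the difference was often not shared by both trials. The difference was positive in both trials for 16 of 55 (29.1%, against 24.6% of all tested probe sets) and negative in both for 10 (18.2%, against 26.8%), and 29 had opposite signs. ATP5J read 484 against 326 in trial 1 and 270 against 213 in trial 2, higher in anti-DJ1 embryos both times (0.45 ± 0.17, adjusted p = 0.853). NDUFS3 read 2322 against 1880 and 1383 against 1079 (0.33 ± 0.13, adjusted p = 0.853); its other probe sets gave 0.13 and 0.013. The nearest to the threshold in the other complexes were SDHA at 0.13 ± 0.12, UQCR10 at 0.23 ± 0.16 and COX7A2 at 0.35 ± 0.17 (adjusted p = 0.944, 0.927 and 0.884). NDUFS1 had the lowest value, -0.85, which came from trial 1 (11.8 against 44.6) and not from trial 2 (42.9 against 46.7), all near background.

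**Figure D5:**
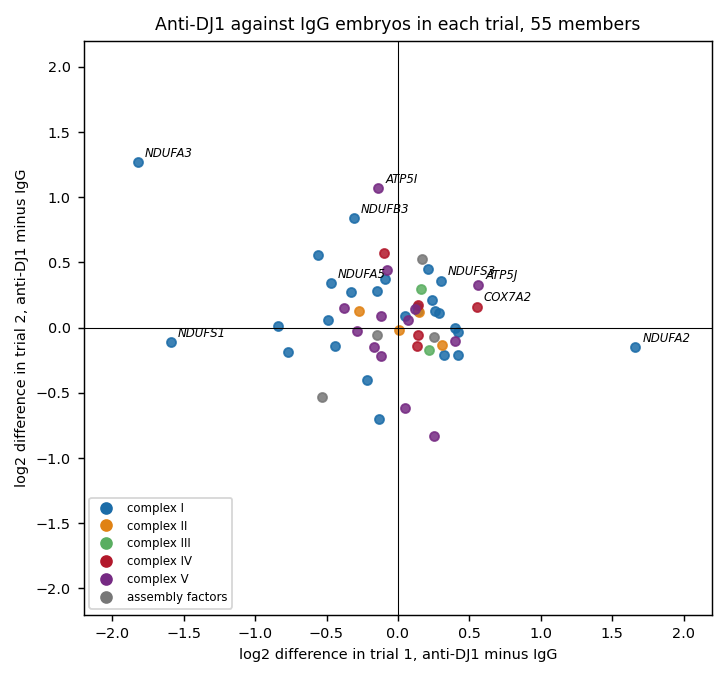
Log2 difference between anti-DJ1 and IgG embryos in trial 1 (horizontal) and trial 2 (vertical) for the 55 tested members, 1 point per gene, coloured by complex. Points lie in all 4 quadrants, with 16 positive in both trials, 10 negative in both and 29 of opposite sign.

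Injected embryos were also compared with the single non-injected array, which both of these comparisons share. In IgG embryos 1 of 55 members (1.82%) passed, against 1.26% of all tested probe sets. In anti-DJ1 embryos 0 of 55 passed in limma, against 1.92%, and 6 (10.9%) had an unadjusted p under 0.05, as had 18.5% of all tested probe sets. The medians of the members were -0.079 and 0.036, against -0.0059 and -0.0078 over all tested probe sets. The member that passed was NDUFB1, a small accessory subunit of the membrane arm of complex I. It read 1240 and 1846 in IgG embryos of trials 1 and 2, 1166 and 2388 in anti-DJ1 embryos and 2215 in non-injected embryos. Within trial 1 both injected arrays lay below the non-injected one, whereas the anti-DJ1 array of trial 2 lay above it. The difference for IgG embryos was -0.95 ± 0.19 (adjusted p = 0.0356) and for anti-DJ1 embryos -0.81 ± 0.19 (adjusted p = 0.0523). Without the trial as a block, the IgG difference was -0.55 and did not pass, nor did it after leaving out any 1 of the 4 injected arrays, in fits without the block, where it ranged from -0.83 to -0.26.

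Other members had an unadjusted p under 0.05 in limma in one comparison or the other and did not pass the adjusted threshold. NDUFA8, an accessory subunit, read 638 and 1289 in IgG embryos, 545 and 973 in anti-DJ1 embryos and 417 in non-injected embryos (IgG 0.65 ± 0.20, adjusted p = 0.123). COX7C was at -0.58 ± 0.21 and COX6C at -0.29 ± 0.13 in IgG embryos (adjusted p = 0.18 and 0.285). NDUFA5 was at 0.99 ± 0.37 in IgG and 0.93 ± 0.37 in anti-DJ1 embryos (adjusted p = 0.192 and 0.203). In anti-DJ1 embryos ATP5B was at 0.44 ± 0.17 and ATP5H at -0.75 ± 0.30 (adjusted p = 0.2 and 0.206). There NDUFAB1 was at 0.76 ± 0.33 and NDUFS1, near background, at -1.58 ± 0.62 (adjusted p = 0.245 and 0.198). Neither complex II, whose most extreme member in IgG embryos by p was SDHB at 0.25 ± 0.15, nor complex III, with UQCRB at -0.33 ± 0.23, held a member nearer to the threshold on these probe sets (adjusted p = 0.421 and 0.486). The second probe set of SDHA was at 1.09 in IgG and 1.11 in anti-DJ1 embryos (adjusted p = 0.102 and 0.0876).

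Counted over arrays with no test, the non-injected array lay below all 4 injected arrays for 15 members (27.3%, against 26.3% of all tested probe sets) and above them for 6 (10.9%, against 19.9%). The non-injected array is from trial 1 and the injected arrays are from both trials. The part of the trial in these counts was not tested. In the lists of other mitochondrial genes, no gene passed in anti-DJ1 against IgG embryos. In each comparison with non-injected embryos 1 of 16 membrane carriers and channels (6.25%) was lower. Of all tested probe sets, 0.347% were lower in IgG and 0.653% in anti-DJ1 embryos. Between the trials 10 of those 16 (62.5%) were higher in trial 2 and none was lower, against 18.9% and 13.4% of all tested probe sets.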

How the data were processed

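The deposited values are probe set intensities, 1 array per sample, on a linear scale; the submitters' processing notes name MAS5, the array maker's summary method, with its version and scaling not given in the sources used here. Per the labels' protocols, cRNA was made from 50 ng of total RNA by two-cycle labelling. Of 24123 probe sets, 124 were controls and were left out. Gene symbols came from the platform annotation, which gave a single symbol to 10069 probe sets, several to 198 and none to 13732; all 64 members matched a RefSeq gene.

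Values were set to log2(signal + 4.57), the pseudocount being the 10th percentile of all signals, so differences of dim genes are understated. The 60% of probe sets with the highest means (14399, mean signal above 39.6) were tested in limma 3.58.1 under R 4.3.3 (lmFit, eBayes with a mean-variance trend), two-sided, with Benjamini-Hochberg adjustment over all of them and a threshold of 0.05. The fit held all 6 arrays, with terms for group and trial, which left 1 residual degree of freedom, with 10.7 added by moderation. The trial is in the design text, which pairs each IgG array with the anti-DJ1 array of its trial. Deviations of the paired arrays from their group means correlated at 0.588 over 14399 probe sets (these are not replicates). Embryos against donor cells is the mean of the 3 embryo groups minus the donor array, at the level of trial 1. Errors of log2 differences are SE. The number of arrays limits the precision. The p-values rest on a spread taken from that 1 residual degree of freedom and from moderation over probe sets. The single donor and non-injected arrays add no spread of their own. The code was tested on simulated data.

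The members, gene lists and tests were chosen with earlier results of these data known, so lists are described by counts and medians and get no test. Named genes were every member past the threshold, the members with the smallest p in each complex, the extremes against donor cells, and isoforms. Other scalings, pseudocounts, filters, blocks, probe set choices and left-out arrays were tried. Promoter and protein sequences were not used here.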

Additional observations from a re-analysis of the deposited data

How the results depend on the processing

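With no replicate block for the trial, 31 of 49 members passed between embryos and donor cells (2 higher, 29 lower) and 0 in IgG against non-injected embryos; the cause was not tested. Of the members that passed, 28 of 49 between embryos and donor cells, 0 of 26 between the trials and 0 of 1 in IgG embryos did so under every alternative tried.

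In IgG against non-injected embryos, 0 members passed with no filter, without a mean-variance trend and in each fit leaving out 1 injected array, and 3 passed with the upper 40% of probe sets (NDUFB1, COX7C and NDUFA8). In anti-DJ1 against non-injected embryos, 1 member, NDUFB1, passed with quantile normalization, a common 75th percentile, a pseudocount at the 25th percentile, the upper 40% or embryo arrays only. The member median between embryos and donor cells was -1.64 with quantile normalization, -1.46 with a common 75th percentile and -1.40 with the upper 40%. There NDUFB2 turned to 0.25 and SDHC to 0.19 with a common 75th percentile. With the dimmest tested probe set NDUFA1 turned to -5.33, NDUFS3 to -0.54 and SDHB to -4.35. That SDHB probe set was above background on 1 of 5 embryo arrays and passed the filter through the donor array alone.

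Between the trials, 0 members passed without the mean-variance trend, and the median was 0.31 with quantile normalization, 0.21 with a common 75th percentile, 0.42 with a pseudocount at the 25th percentile, 0.42 with no filter, 0.43 with the upper 40%, 0.54 without assembly factors, and 0.51 with all embryos as 1 group, an alternative chosen after seeing the data. With the dimmest tested probe set ATP5L turned to -0.88 and NDUFS3 to 0.55.

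Leaving out 1 array at a time, in fits without the block, the member median ranged from -0.22 to 0.31 in anti-DJ1 against IgG embryos, from -0.003 to 0.47 in IgG against non-injected embryos (0.47 without IgG replicate 1) and from -0.0093 to 0.63 in anti-DJ1 against non-injected embryos (0.63 without anti-DJ1 replicate 1).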
